A study of Mus musculus with 6 samples.

Results

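Il18, Il33, Cxcl1, Icam1, Tifa, Irf1, Zbp1 and Oasl2 are 8 genes through which epithelial cells raise an alarm or sense microbes and viruses, and they were examined in mouse small-intestinal enteroids treated with IL-22. They were taken by symbol from the 690 genes of the authors' deposited table, which holds only genes that the authors had selected as different between treated and untreated enteroids. All 8 were found, each in 1 row. They were chosen by their listed group means, with the higher levels in IL-22 known, so the comparison of the groups is described here and not tested.

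Enteroids are organoids grown from crypts, and these came from C57BL/6J mice without necrotizing enterocolitis, an inflammatory bowel disease of newborns. The study concerned IL-22 in the gut lining of newborn mice. All wells were differentiated for 4 days in a medium with EGF, Noggin and R-spondin 1. The control group was 4 untreated wells from 2 mice, and the IL-22 group was 2 wells from 1 mouse given mouse recombinant IL-22 over 24 hours. For the dose, the labels state 2 ng/ml, but the table that the authors deposited is headed with 100 ng. The age is 6 weeks in the labels of the samples and 8 weeks for adults or 7 days for neonates in their protocol. Wells of a mouse are called technical replicates, so the spread between wells is not the spread between treated animals. With 1 treated mouse, an effect of IL-22 and a difference between mice cannot be told apart here. The sample titles do not say whether that mouse was also a control mouse.

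The levels are in RPM, which is reads of a gene out of 1000000 library reads. The table gives group means with standard errors (SEM) and a quality value per group, which was read as mean raw reads from its values. From these, whole reads in each library were recovered, and for each of the 8 genes 1 set of control reads fitted the deposited mean and SEM. The libraries are known by their depth and not by mouse or well. By the read total behind RPM, the control libraries held 36600000, 35200000, 27400000 and 22600000 reads and the IL-22 libraries 32500000 and 29900000. Whether that total counts sequenced, aligned or assigned reads is not known. Control values are given below in that order from the deepest to the shallowest. None of 10 epithelial markers and none of 26 markers of blood, stromal and endothelial cells chosen for a check of the tissue was among the 690 genes, which hold only genes that differed. Outside those lists, the Paneth cell product Mmp7, an intestinal epithelial gene, had group means of 38.5 ± 4.39 (control) and 224.3 ± 23.6 RPM (IL-22), per the authors' deposited table. Mrc1, a mannose receptor gene of macrophages and some endothelial cells, stands in the authors' deposited table too, at 1.00 ± 0.178 and 2.53 ± 0.119 RPM. Ctgf, a gene of matrix-associated growth signalling that stromal cells also express, has means of 0.403 ± 0.0820 and 1.85 ± 0.221 RPM in the same authors' deposited table. What other cell types contributed to the levels of the 8 genes was not tested.

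IL-22 is a cytokine of immune cells that acts on epithelial cells through a receptor whose main signal is the transcription factor STAT3. Alarmins such as IL-33 and cytokines such as IL-18 are made by epithelial cells ahead of need and are released or cleaved when the barrier is breached. Chemokines and adhesion molecules then draw and hold leukocytes, and sensors inside the cell start NF-kB or interferon programmes when they meet bacterial sugars or foreign nucleic acids.

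Promoter sequences were searched for sites of the transcription factors of these programmes, since the 8 genes were higher together. RefSeq windows of GRCm38.p6, from 250 bases before to 50 bases after a gene start, existed for 7 of the 8 genes (10 windows, none for Zbp1). The STAT site TTCNNNGAA lay in a window of Icam1 and of Irf1. The kB consensus of NF-kB, in either direction, lay in a window of Cxcl1 (GGGAATTTCC), of Tifa (GGGATTTTCC) and of Irf1 (GGGGAATCCC). Only full matches to the consensus were counted. A kB site with other letters would be missed, in Icam1 as in the other genes. The interferon response motif GAAANNGAAA was found on neither strand in any of the 10 windows. Among all 32851 windows, 8.30% hold the STAT site, 8.46% the kB consensus and 3.44% the interferon motif. Counted by gene, the shares are 9.55%, 9.55% and 3.99% of 27025 genes. The 250 bases before the start are shown for the 3 genes with a site there, on the plus strand, with the sites in capitals. A match is a description of these letters and does not show that a factor bound.
Cxcl1, chr5:90890995-90891244: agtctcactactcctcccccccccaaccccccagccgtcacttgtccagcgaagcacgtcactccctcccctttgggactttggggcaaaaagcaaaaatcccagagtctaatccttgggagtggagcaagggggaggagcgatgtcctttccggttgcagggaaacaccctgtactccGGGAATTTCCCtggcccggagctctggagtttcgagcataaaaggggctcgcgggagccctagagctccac
Icam1, chr9:21015690-21015939: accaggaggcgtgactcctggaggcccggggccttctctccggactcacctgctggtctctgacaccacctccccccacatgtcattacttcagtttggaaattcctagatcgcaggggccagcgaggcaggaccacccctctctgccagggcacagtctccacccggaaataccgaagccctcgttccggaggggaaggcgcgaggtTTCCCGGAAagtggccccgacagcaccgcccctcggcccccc
Irf1, chr11:53769764-53770013: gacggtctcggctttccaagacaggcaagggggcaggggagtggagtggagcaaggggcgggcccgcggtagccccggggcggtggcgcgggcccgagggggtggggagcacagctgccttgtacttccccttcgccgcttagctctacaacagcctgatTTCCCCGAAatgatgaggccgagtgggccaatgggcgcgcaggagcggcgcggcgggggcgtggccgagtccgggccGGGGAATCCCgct
In Cxcl1 the capitals mark 1 stretch that matches the kB consensus on both strands in overlapping registers, with its first base 71 bases before the start. In Icam1 they mark the STAT site that begins 42 bases before the start. In Irf1 the first capitals are a STAT site that begins 90 bases before the start, and the second are a kB site that begins 13 bases before it. The site of Tifa begins 34 bases after a start and is not shown. No full match to any of these motifs was found in the windows of Il18, Il33 and Oasl2.

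All 8 genes had higher group means with IL-22, between 2.07-fold and 9.13-fold. The choice of the genes fixed that direction. Their group means were known at the choice, so the size of their ratios is not independent of it either. Of the 690 listed genes, 38.7% were at least 2-fold higher with IL-22. At least 4-fold higher were 5 of the 8 genes, against 13.2% of all listed genes and 34.1% of the 267 that were higher. That count was 3 with 0.1 RPM and 2 with 1 RPM added to both means. The median ratio was 4.61 over the 8 genes and 3.15 over the 267 listed genes that were higher. Summed over the 8 genes, the level was between 61.5 and 67.8 RPM in the control libraries and 411.7 and 481.0 RPM in the IL-22 libraries. Tifa and Il18 together made up 80.4% of that sum in controls and 92.9% with IL-22. In whole enteroids a change in the share of cells of a type and a change in the RNA per cell cannot be told apart.

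**Figure D1:**
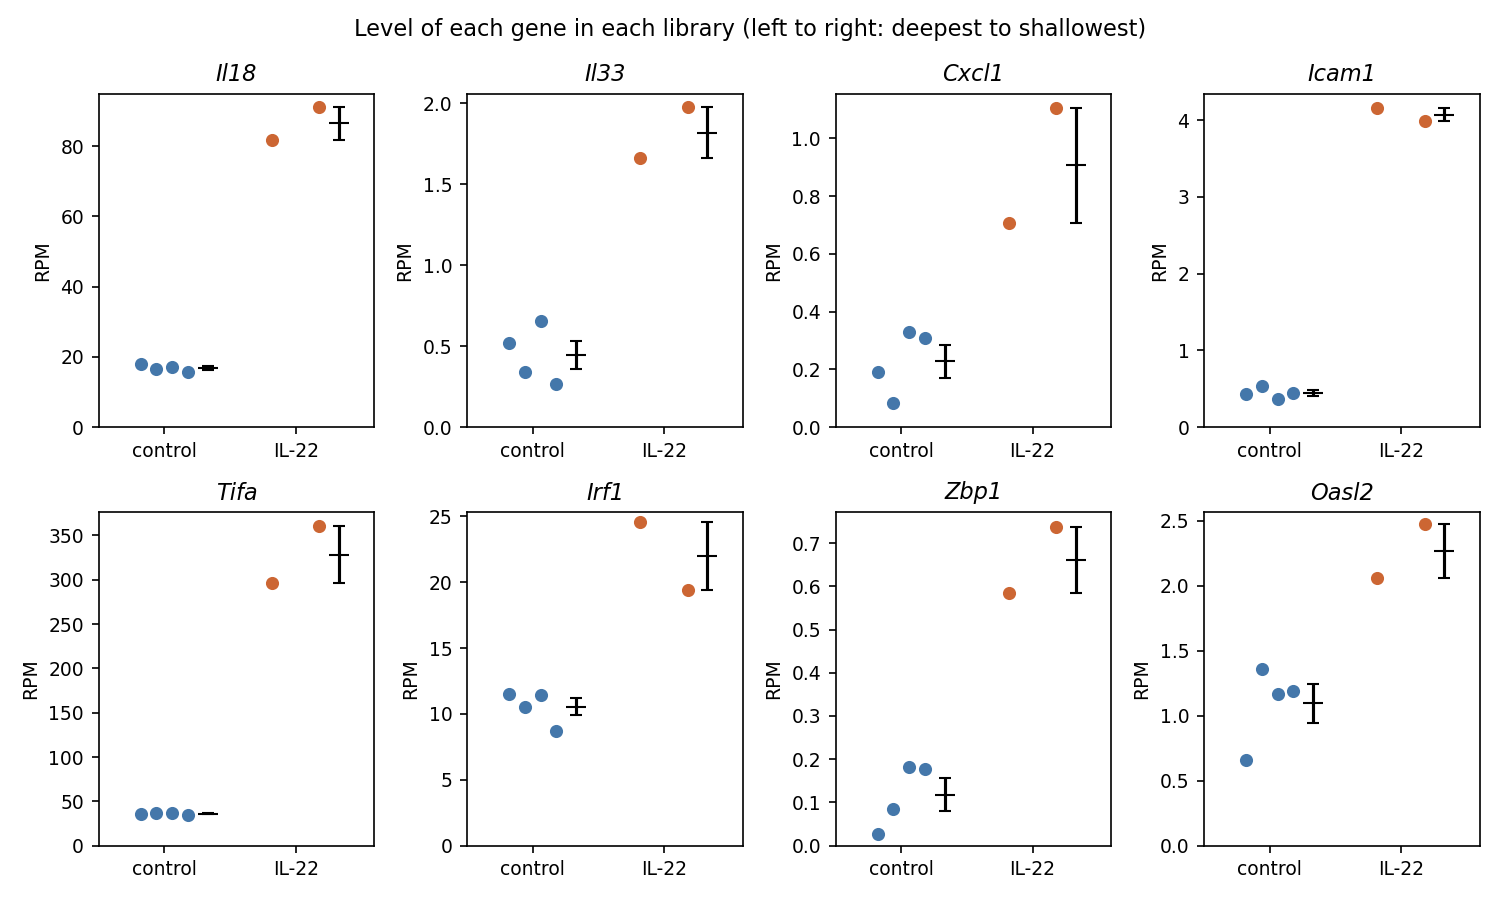
Level of each of the 8 genes in RPM (vertical axes, from 0) in 4 control and 2 IL-22 libraries, each group drawn from the deepest to the shallowest library, with the deposited group mean ± SEM beside the points. In each panel both IL-22 points lie above all control points, with the smallest distance between the groups in Oasl2 and Irf1.

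Il18 encodes an IL-1 family cytokine that is stored as a precursor and cleaved by caspase-1 in inflammasomes. Il18 (Entrez 16173, chromosome 9) stood at 18.0, 16.6, 17.1 and 15.6 RPM in the control libraries, and at 81.7 RPM in the deeper and 91.2 RPM in the shallower IL-22 library. The control libraries were close together, with a highest value 1.16 times the lowest, and the groups did not overlap. In the authors' deposited table its mean went from 16.8 ± 0.506 to 86.4 ± 4.75 RPM (SEM, 4 and 2 wells), a ratio of 5.13. On the log2 scale that is 2.36 with a standard error of 0.09.

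Il33 encodes a nuclear alarmin of barrier cells that is released on damage and acts on cells that carry the receptor ST2. Il33 (Entrez 77125, chromosome 19) was at 0.519, 0.340, 0.657 and 0.265 RPM in the control libraries, which corresponds to 19, 12, 18 and 6 reads. In the IL-22 libraries it was at 1.66 and 1.97 RPM, from 54 and 59 reads. Both IL-22 libraries were above every control library, although the controls among themselves differed by 2.48 times. The authors' deposited table gives means of 0.445 ± 0.0883 and 1.82 ± 0.156 RPM, a ratio of 4.08. The count ratio, which is summed reads per summed depth, was 4.02 with a 95% exact counting interval of 2.89 to 5.65. Such intervals leave out differences between wells and mice, and they are no test, since these same values chose the genes.

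Of 31 other IL-1 family and inflammasome genes, 1 was listed, and it was higher. Of all 690 listed genes 38.7% were higher, which is the background for the count of higher genes in each pathway list. Il1r1, the signalling receptor for IL-1, had a ratio of 2.03 in the authors' deposited table and went from 0.325 ± 0.0540 to 0.659 ± 0.0434 RPM, with the shallowest control library at 0.486 RPM and the other 3 at 0.255 to 0.284 RPM. Casp1, Gsdmd, Il18bp and Il1rl1, which encode the IL-18-cleaving protease, the pore-forming gasdermin D, the IL-18 antagonist and ST2, were not among the listed genes. A gene missing from the table may or may not have changed. Of 11 other genes looked up as epithelial alarmins in a broad sense, 2 were listed, and both were higher. Tslp, Il25, Hmgb1, S100a8 and S100a9 were looked up too and were not among the listed genes. Anxa1, a calcium-dependent phospholipid-binding protein gene, had a ratio of 5.22 in the authors' deposited table, and S100a11, of the S100 calcium-binding family, a ratio of 2.01.

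Cxcl1 encodes a chemokine that attracts neutrophils. Cxcl1 (Entrez 14825, chromosome 5) was at 0.191, 0.0851, 0.328 and 0.309 RPM in the control libraries, from 7, 3, 9 and 7 reads. In the IL-22 libraries it was at 0.708 and 1.10 RPM, from 23 and 33 reads. The lower IL-22 library was 2.16 times the highest control library, and the shallower IL-22 library was 1.56 times the deeper one, the largest distance between these wells for any of the 8 genes. The ratio of the means in the authors' deposited table was 3.97, and the count ratio of 4.21 had a 95% counting interval of 2.60 to 6.99. None of 25 other chemokine genes was listed, Cxcl2, Cxcl5, Cxcl10 and Ccl20 among them.

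Icam1 encodes a surface protein that leukocytes bind with their integrins. Icam1 (Entrez 15894, chromosome 9) was at 0.437, 0.539, 0.365 and 0.442 RPM in the control libraries, and at 4.16 and 3.98 RPM in the IL-22 libraries. The IL-22 wells were within 1.04 times of each other and both stood at least 7.39 times above the highest control. In the authors' deposited table the ratio was 9.13, which places Icam1 at rank 39 among the 267 higher genes, and its IL-22 mean was low, at 4.07 ± 0.0875 RPM. Its count ratio was 9.03, with a 95% counting interval of 6.72 to 12.3 from 55 control and 254 IL-22 reads. The antisense gene Gm47079 shares 511 exonic bases with Icam1 in GENCODE M21, and 85.2% of its sequence words of 31 bases occur in no other gene. Reads of both strands cannot be told apart, since no source used here states whether strand was used. None of 16 other genes of leukocyte adhesion was listed.

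Tifa encodes an adaptor that assembles into filaments when the kinase ALPK1 senses a bacterial sugar nucleotide, and that passes the signal to TRAF6 and NF-kB. Tifa (Entrez 211550, chromosome 3) was at 35.8, 36.6, 36.6 and 34.8 RPM in the control libraries, and at 296.3 and 360.2 RPM in the IL-22 libraries. Its control libraries were the closest of any of the 8 genes, with a coefficient of variation of 2.30%, and the lower IL-22 library was 8.10 times the highest control. The ratio of the means in the authors' deposited table was 9.13. Tifa thus had the same ratio as Icam1 to 3 digits, although the authors' deposited table puts its IL-22 mean at 328.3 ± 31.9 RPM and that of Icam1 at 4.07 ± 0.0875 RPM. Tifa shares 105 exonic bases with Gm43654 on the opposite strand.

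Alpk1, the kinase upstream of TIFA, was also listed. In the authors' deposited table it was 7.07-fold higher, from 7.86 ± 0.485 to 55.6 ± 3.09 RPM. Its control libraries lay between 7.11 and 9.26 RPM and its IL-22 libraries at 52.5 and 58.7 RPM. Of 24 other genes of the TIFA and NF-kB list, 3 were listed and all 3 were higher. Besides Alpk1 these were Tnip3, which encodes a partner of the NF-kB inhibitor A20, and Bcl3, which encodes an atypical IkB protein. The authors' deposited table puts Tnip3 10.8-fold higher, from 0.167 ± 0.0266 to 1.79 ± 0.251 RPM. Its mean reads were few, at 5.25 in controls and 55.5 with IL-22. Bcl3 stands in the authors' deposited table at 4.30 ± 0.344 and 15.2 ± 3.30 RPM, a ratio of 3.54. The deepest control library, at 0.246 RPM of Tnip3, stood apart from the other 3 at 0.132 to 0.146 RPM. Traf6, Nfkbia, Tnfaip3, Nfkb1 and Rela were not among the listed genes. Of 16 genes of surface pattern recognition 1 was listed, Tlr1, which encodes a receptor for bacterial lipopeptides and had a ratio of 4.50 in the authors' deposited table.

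**Figure D2:**
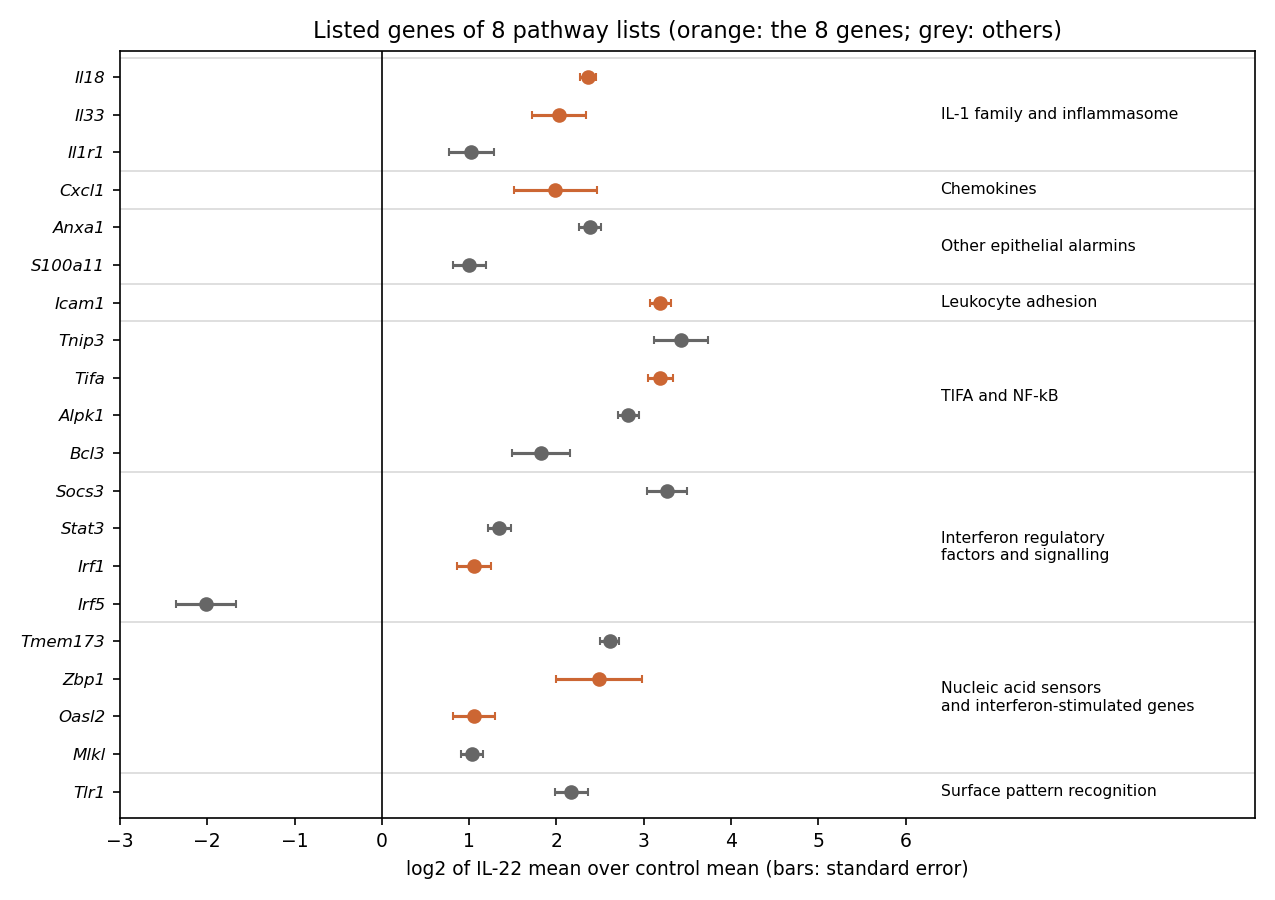
Log2 ratio of the means, IL-22 over control (horizontal axis, bars are standard errors from the deposited SEMs) for every listed gene of 8 pathway lists, with the 8 genes in orange and the other listed genes in grey. Of the 12 grey genes 11 lie to the right of 0, and Irf5 lies to the left.

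Irf1 encodes a transcription factor that is induced by interferon-gamma and drives antiviral and antigen-presentation genes. Irf1 (Entrez 16362, chromosome 11) was at 11.5, 10.6, 11.4 and 8.70 RPM in the control libraries, and at 24.5 and 19.4 RPM in the IL-22 libraries. Irf1 and Icam1 had their higher value in the deeper IL-22 library, and the other 6 genes in the shallower one. Over 219 higher listed genes with recovered IL-22 reads, 50.2% had their higher value in the shallower IL-22 library. The lower IL-22 library was 1.68 times the highest control. Its ratio of 2.08 in the authors' deposited table was just above 2, and without the deeper IL-22 library it was 1.84. Irf1 shares 135 exonic bases with Gm17334 on the opposite strand.

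Of 24 other genes of interferon regulatory factors and signalling, 2 were listed as higher and 1 as lower. The lower one was Irf5, a transcription factor of the same family that acts downstream of Toll-like receptors. In the authors' deposited table Irf5 went from 0.705 ± 0.0364 to 0.175 ± 0.0409 RPM, and its libraries lay between 0.629 and 0.802 RPM in controls and at 0.216 and 0.134 RPM with IL-22. Its mean reads were few, at 21.25 in controls and 5.5 with IL-22. Stat3, the transcription factor downstream of the IL-22 receptor, and Socs3, its feedback inhibitor, had ratios of 2.54 and 9.64 in the authors' deposited table. Irf7 and Irf9 were not among the listed genes.

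Zbp1 encodes a sensor of left-handed double-stranded nucleic acids that can engage the kinase RIPK3 and the necroptosis effector MLKL. Zbp1 (Entrez 58203, chromosome 2) was at 0.0273, 0.0851, 0.182 and 0.177 RPM in the control libraries, from 1, 3, 5 and 4 reads. In the IL-22 libraries it was at 0.585 and 0.736 RPM, from 19 and 22 reads. It was the least expressed of the 8 genes, and 3 reads in a control library correspond to between 0.0820 and 0.132 RPM. The count ratio was 6.17, with a 95% counting interval of 3.24 to 12.5, and the ratio in the authors' deposited table was 5.61. Without the deepest control library, which held 1 read, the ratio of the means was 4.46.

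Oasl2 encodes an interferon-induced relative of the oligoadenylate synthetases. Oasl2 (Entrez 23962, chromosome 5) was at 0.656, 1.36, 1.17 and 1.19 RPM in the control libraries, and at 2.06 and 2.48 RPM in the IL-22 libraries. The deepest control library was the lowest for Oasl2, as it was for Zbp1. The ratio of 2.07 in the authors' deposited table is the one of the 8 nearest to 2, the lowest ratio that a higher gene of this table has being 2.00. It was 1.83 without the deepest control library and 1.89 without the shallower IL-22 library. The count ratio was 2.10, with a 95% counting interval of 1.65 to 2.69.

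Of 36 other genes of nucleic acid sensing and the interferon response, 2 were listed and both were higher. Tmem173, the gene of the adaptor STING for DNA in the cytosol, had a ratio of 6.11 in the authors' deposited table and went from 2.50 ± 0.0836 to 15.3 ± 1.05 RPM. Mlkl was 2.04-fold higher in that table of the authors, from 2.51 ± 0.204 to 5.12 ± 0.165 RPM. The interferon-stimulated genes Isg15, Ifit1, Mx1, Rsad2 and Oas2, and the kinase gene Ripk3, were not among the listed genes.

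Over the 8 pathway lists, 183 genes other than the 8 were looked up, of which 12 were listed, 11 as higher and 1 as lower, and 171 were not listed. Of all listed genes, 267 or 38.7% were higher and 423 lower. The lists were drawn up with earlier results of these data known, so these counts are a description.

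Compared per length, with GENCODE M21 exon lengths, Il18 and Tifa stood far above the rest. In controls the mean was 16.3 RPM per kilobase for Il18, 11.2 for Tifa and 2.65 for Irf1, and the libraries of these 3 genes did not overlap. Oasl2, Il33, Cxcl1 and Icam1 followed at 0.172, 0.154, 0.122 and 0.102 RPM per kilobase, and neighbours in that order overlapped across libraries. Zbp1 was the lowest, at 0.0334 RPM per kilobase. With IL-22, Tifa at 102.6 RPM per kilobase stood above Il18 at 83.8 without overlap, so the order of both genes was the other way round. Irf1 followed at 5.52 and Icam1 at 0.934 RPM per kilobase. Il33 at 0.630 overlapped with Cxcl1 at 0.483, and Cxcl1 with Oasl2 at 0.356, while Zbp1 at 0.187 RPM per kilobase was again the lowest. By the means per length, Icam1 thus went from place 7 to place 4. Its place in controls was not resolved, since its control libraries overlapped with those of Cxcl1, Il33 and Oasl2.

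**Figure D3:**
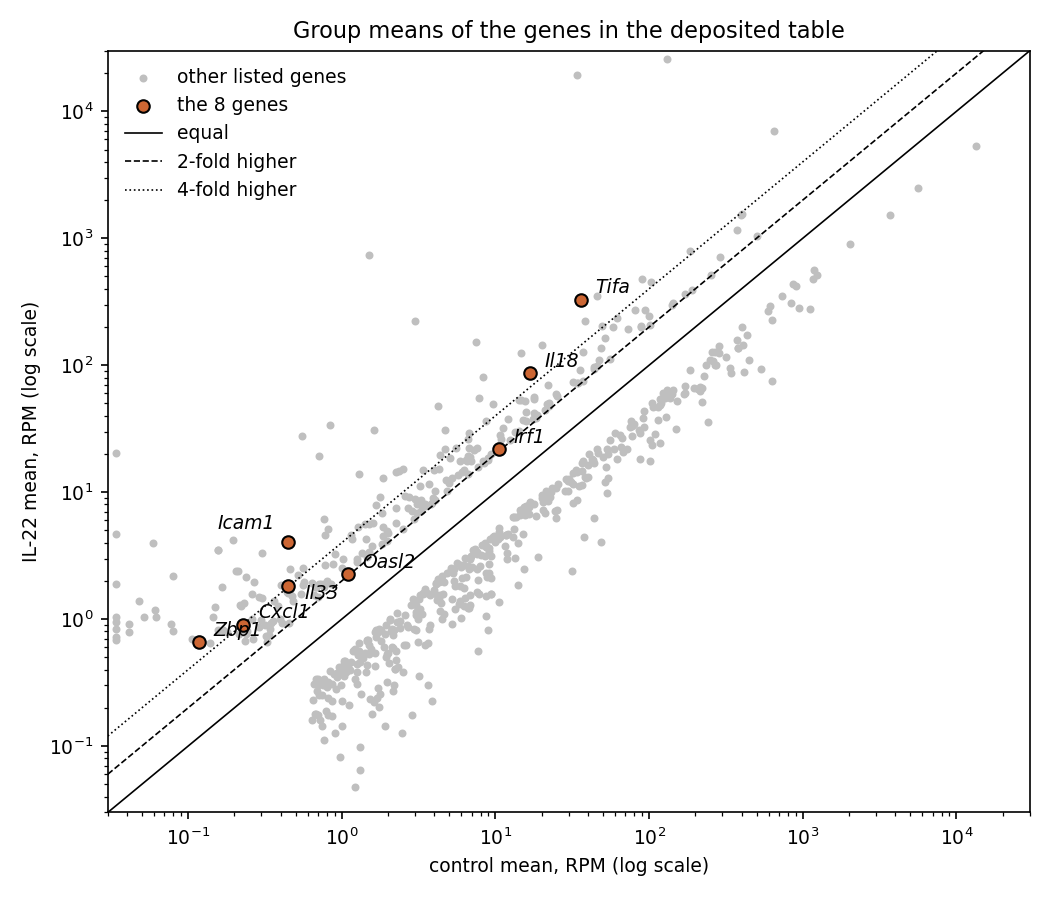
Control mean (horizontal, log scale) against IL-22 mean (vertical, log scale), both in RPM, for the 690 genes of the deposited table, with the 8 genes as labelled orange points and lines for equal means, 2-fold and 4-fold higher. Of the 8 genes, 5 have an IL-22 mean under 5 RPM, and Icam1 and Tifa lie farthest above the line of equal means.

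A low level was common to 5 of the 8 genes, namely Il33, Cxcl1, Icam1, Zbp1 and Oasl2, which had IL-22 means under 5 RPM. Of the listed genes that were at least 2-fold higher, 40.8% had a level that low. Both IL-22 libraries were above all control libraries in 8 of the 8 genes, against 40.2% of the 520 listed genes with recovered reads in all libraries. In 520 of those 520 genes the groups were apart in one direction or the other, so the separation adds nothing for the 8 genes. The lower IL-22 library was at least 2-fold above the highest control library in 6 of the 8 genes, against 22.3% of the 520 genes and 55.5% of the 209 higher ones among them, and Irf1 and Oasl2 were the exceptions.

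**Figure D4:**
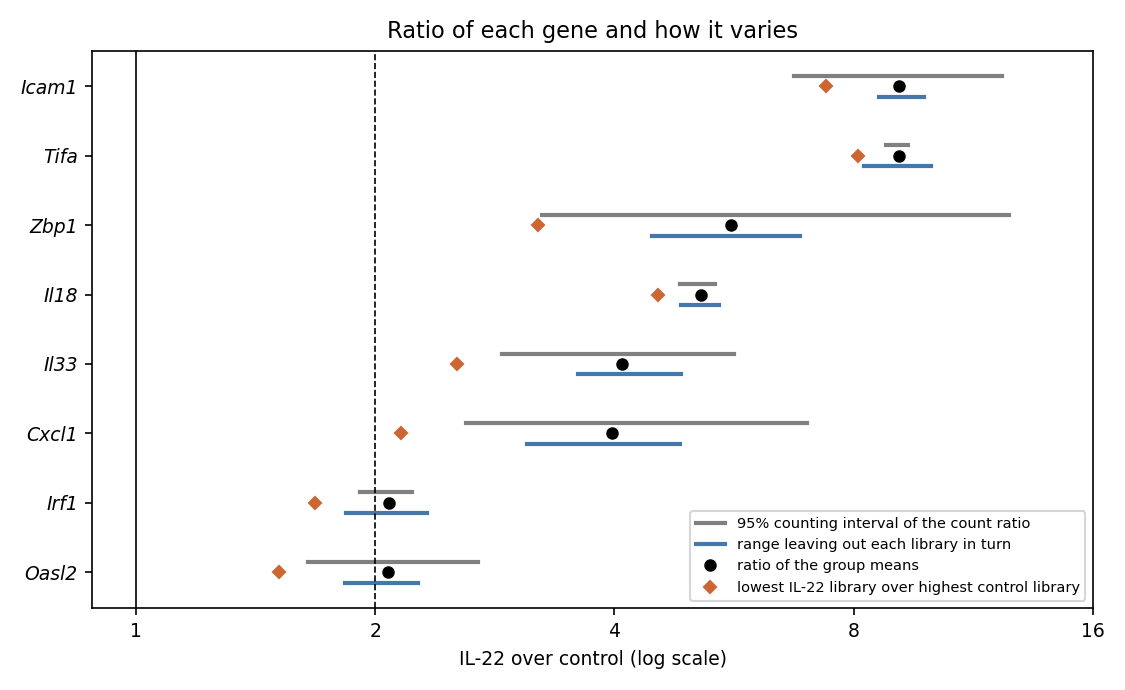
IL-22 over control (horizontal, log scale) for each of the 8 genes as the ratio of group means (black), the lowest IL-22 over the highest control library (orange), the 95% counting interval of the count ratio (grey) and the range when each library is left out in turn (blue). The intervals are widest for Zbp1, Cxcl1 and Il33, and for Irf1 and Oasl2 both bars reach below 2. The counting intervals leave out differences between wells and mice and are no test.

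Terms for gene function stand beside each gene in the authors' deposited table, and they place 6 of the 8 genes, all but Tifa and Zbp1, under immune system process. Among all listed genes, 54 or 7.83% carry that term, 41 of them higher and 13 lower. The 8 genes were chosen for roles of this kind, so these terms restate the choice. Cytokine activity was attached to Il18, Il33 and Cxcl1, 3 of the 10 listed genes with that term. Leukocyte migration was attached to Icam1, Il33 and Cxcl1, 3 of 9. For each gene, the row nearest to it was found by the distance between the log2 group means, over 2 group means. Nearest to Irf1 was Il4ra, which encodes the receptor chain for IL-4 and had a ratio of 2.20 in the authors' deposited table. Nearest to Il33 was Btn1a1 and nearest to Il18 was Chst4, with ratios of 3.66 and 3.21 in the authors' deposited table. Nearest to Icam1 was the growth factor gene Pdgfc and nearest to Zbp1 the collagen gene Col28a1, for which the authors' deposited table gives ratios of 10.9 and 5.98.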

How the data were processed

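RNA was measured by poly(A) RNA-seq with 15 PCR cycles and single reads, per the labels' protocols. BWA 0.5.9 and Picard 1.58 were used, per the submitters' processing notes. No source used here gives the genome build, the annotation or the counting program. The authors' deposited means and SEMs are in RPM, inferred from the values, and the mean raw reads are the signal per group in the same deposited file. The ratio or fold that the authors deposited divides the mean of IL-22 wells by that of control wells. The authors' p-values and their Benjamini-Hochberg adjustment chose the table and were not used as a test here.

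Depths were recovered from whole multiples of 1 read, a library with no read carrying the value of 1 read. IL-22 values are the mean plus and minus the SEM, assigned to the library in which they are whole reads, within 0.01 of a read in 593 of 593 genes with under 2000 mean reads. At or above 2000 mean IL-22 reads, only Il18 and Tifa were recovered. Control reads were found by listing whole reads that give the printed mean and SEM. Of 547 genes with at most 1200 mean control reads, 535 had exactly 1 solution and 12 had more. The recovery was tested on simulated data. Over the genes with at least 20 reads in both libraries together, libraries of a group differed with a chi-square per gene of 3.14 to 8.74 against counting noise, so that no pair was identical. Wells are not animals, and wells from 1 mouse are labelled as technical replicates. Counting intervals (95%, exact conditional binomial) cover counting error alone, because they pool the reads of a group and leave out differences between wells and mice. PCR copies are not separate molecules, so the intervals can be too narrow for counting error as well. Python 3.11.15, numpy 2.4.6 and scipy 1.17.1 were used.

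The 8 genes, the pathway lists and the rule for named genes were chosen with earlier results of these data known. The rule names the 8 genes, up to 6 other listed genes of each list, and the genes nearest in both group means. Some genes of the lists are not reported here. Fold changes were recomputed with 0.1 or 1 RPM added, with at least 10 mean reads in both groups, from raw reads per total depth and without each library. Entrez identifiers matched RefSeq genes of GRCm38.p6 for 679 of 690 rows, and coordinates belong to the RefSeq sequences and not to the authors' files.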

Additional observations from a re-analysis of the deposited data

Results flagged for a closer look

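No control library of the 8 genes stood apart by Dixon's criterion, and 2 of 19 named genes with 4 recovered control values did, where chance flags about 1 in 20. For Il1r1 the control libraries were at 0.273, 0.284, 0.255 and 0.486 RPM from the deepest to the shallowest, and the gap of the shallowest library to the next was 0.877 of the range. For Tnip3 they were at 0.246, 0.142, 0.146 and 0.132 RPM, and the gap of the deepest library to the next was 0.882 of the range. Il1r1 and Tnip3 had only 9.5 and 5.25 mean control reads. The cause was not tested.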

How the results depend on the processing

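The choice of the 8 genes and the separation of the libraries fix the direction in each setting that was run, so the direction shows nothing of stability. The count of genes at least 2-fold higher, 8 in the deposited means, was 3 with 1 RPM added to both means. The count at least 4-fold higher, 5 in the deposited means, was 3 with 0.1 RPM added and 2 with 1 RPM added. It was also 3 when the lowest IL-22 library was set over the highest control library, a comparison chosen after the data were seen. From raw reads per total depth, 8 genes were at 2-fold and 6 at 4-fold. Of the 6 genes with at least 10 mean reads in both groups, 6 were at 2-fold and 4 at 4-fold. A constant added to low means brings their ratio nearer to 1 by construction. Leaving out each library in turn gave 7 to 8 genes at 2-fold and 4 to 6 at 4-fold. Irf1 was at 1.97 without the shallowest control library. Among the other pathway genes, 9 of the 11 higher ones were left with at least 10 mean reads in both groups and 8 with 1 RPM added. No paired analysis was possible because the recovered libraries carry no mouse or well number. With 1 treated mouse, pairing would also give no replication over treated animals. The few control reads of Zbp1, Cxcl1, Il33 and Icam1 limit their ratios. Few reads also limit the ratios of Tnip3 and Il1r1, in controls, and of Irf5, with IL-22.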
